A study of Gallus gallus with 5 samples.

Results

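The comparison is between 2 of the 5 libraries of a chicken (Gallus gallus) blastoderm series, the library from blastoderms kept for 7 days at 16 °C and the library from blastoderms kept for 7 days at 4 °C. They were chosen by their labels, not by any measured value. Poly(A) RNA was sequenced, and levels are FPKM, fragments counted on a transcript divided by its length and by the mapped fragments of the library. The other 3 libraries, from blastoderms stored for 7 days at 24 °C, incubated for 4 h at 37 °C or not stored at all, are given beside the results as context. The labels name the same tissue for all 5 and do not give the strain, the sex or the number of blastoderms in a library. With 1 library a condition there was no replicate, so no difference below has a p-value, a standard deviation or a replicate check, and each describes these libraries.

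The blastoderm is the disc of embryonic cells that lies on the yolk of a laid egg. It holds the epiblast, from which the embryo forms, the hypoblast beneath it, and cells that will form extra-embryonic tissue. Kept cool, the blastoderm pauses in what is called embryonic diapause or dormancy, and it resumes development when the egg is warmed. Below a temperature known as physiological zero development stops without the embryo dying at once, and storage temperature and length are known to affect how many embryos survive. Both 16 °C and 4 °C are below it, so the comparison sets a milder cold against a harsher one.

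Both libraries carried the transcripts of a blastoderm. NANOG, the pluripotency factor of the epiblast, had 225 FPKM at 16 °C and 518 at 4 °C. Over the 7 of 10 epiblast markers with a value, FPKM summed to 1022 at 16 °C and 1819 at 4 °C. The 8 markers of hypoblast and endoderm summed to 178 at 16 °C and 226 at 4 °C. Markers of other sources were low in both. The 7 erythroid markers with a value summed to 2.91 FPKM at 16 °C and 3.33 at 4 °C, with HBBA, HBE1 and HBZ listed at 0 at 4 °C. The 5 of white blood cells summed to 4.08 at 16 °C and 1.30 at 4 °C, with SPI1 listed at 0 at 4 °C. The 6 of egg white and oviduct summed to 11.6 at 16 °C and 4.26 at 4 °C, with ovalbumin (OVAL) listed at 0 in both. The 4 muscle and neural markers summed to 3.23 at 16 °C and 4.94 at 4 °C, the 5 of yolk and liver to 1.77 at 16 °C and 0.73 at 4 °C, the 5 of oocytes to 3.44 at 16 °C and 5.40 at 4 °C, and the 3 of germ cells to 12.2 at 16 °C and 21.1 at 4 °C. In RNA of a whole tissue, fewer cells of a type and less RNA of its genes per cell cannot be told apart.

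Rows of the deposited tables carry RefSeq accessions, and 12609 of 32188 rows could be given a gene symbol, which made 10102 genes. Of these, 7733 reached an FPKM of 1 in some library, and 7689 were above 0 at both 16 °C and 4 °C. Rows with a symbol held 70.4% of the FPKM at 16 °C and 71.97% at 4 °C. The value of a gene holds only these rows, and 6451 of the 7733 genes rest on 1 row. Whether rows without a symbol are further transcripts of the same genes was not tested. A difference is log2(FPKM + 1) at 16 °C minus log2(FPKM + 1) at 4 °C, called the log2 difference below, which understates the change of low genes. Genes where it reached 1 or -1 are the ones counted as higher or lower by 2-fold or more. At 16 °C 559 genes (7.27%) were higher by 2-fold or more and 998 (13.0%) lower by 2-fold or more, so 20.2% differed either way. The log2 difference reached 2 in 47 genes and -2 in 93. Its median over all genes was -0.15 and its standard deviation across genes 0.79. The 5th and 95th percentiles were -1.42 and 1.15.

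The balance of higher and lower genes rests on the scaling. FPKM summed to 334081 at 16 °C and 389061 at 4 °C, and median-ratio size factors gave 714 higher and 771 lower genes. The share of higher genes among those at least 2-fold apart was then 48.1%, against 35.9% as deposited. With the 16 °C values scaled to the FPKM sum of the 4 °C library it was 55.0%. With each library scaled to the same total over all rows, with or without a symbol, it was 57.2%. Rows without a symbol did not show the surplus of lower values, with 931 higher and 899 lower among 8141. Values below are as deposited, so a log2 difference is to be read against the median of -0.15, and a single number in brackets after a gene is its log2 difference. The gene lists hold 1919 genes, of which 1238 passed the filter and are the members counted, and higher and lower mean at least 2-fold in every count. Each list count is to be read against the 7.27% higher and 13.0% lower of all genes.

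**Figure D1:**
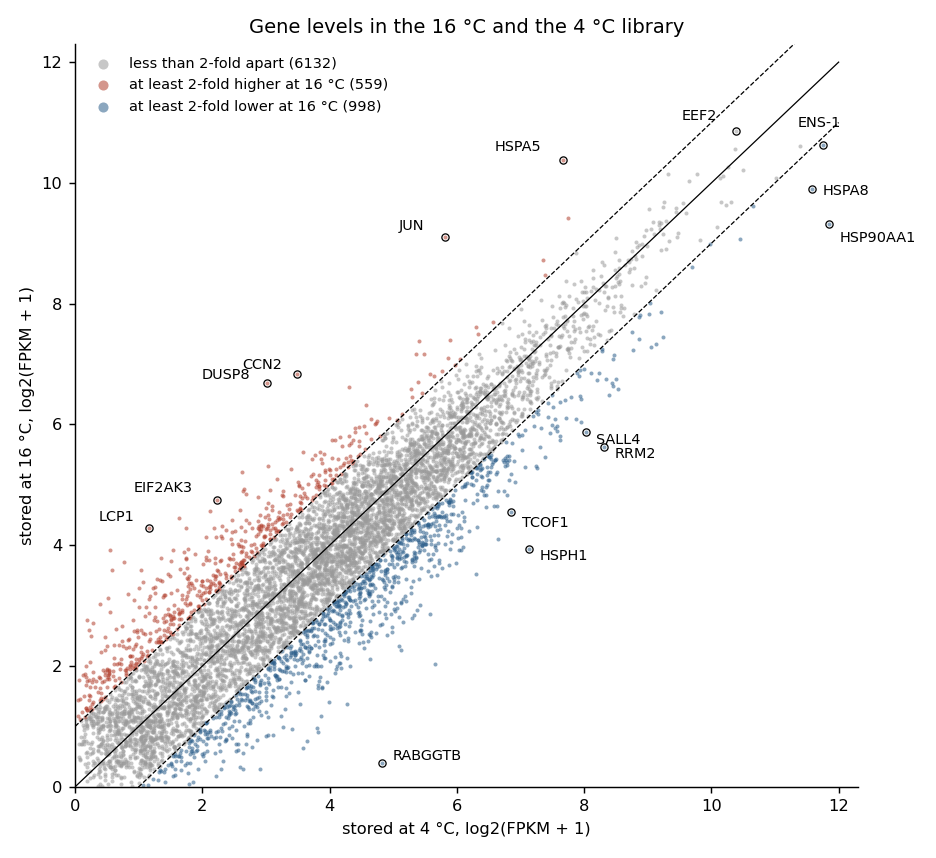
Each point is 1 gene, with its log2(FPKM + 1) at 16 °C on the vertical axis and at 4 °C on the horizontal axis. The solid line marks equal levels and the dashed lines a log2 difference of 1 and -1. The 559 red genes, JUN and HSPA5 among the most abundant, lie above the upper dashed line, and the 998 blue genes, HSP90AA1 and HSPA8 among them, lie below the lower one.

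Genes that were lower at 16 °C were spread over all levels from 1 FPKM up, while genes that were higher were mostly of low and middle level. Among the 1786 genes with a mean FPKM of the 2 libraries between 1 and 5, 11.2% were higher and 11.8% lower. Between 50 and 100 FPKM 2.39% of 669 genes were higher and 12.6% lower. Of the 317 genes between 100 and 250 FPKM, 6 were higher and 47 lower. At 250 FPKM and above 5 of 140 genes were higher, namely HSPA5, JUN, HSPB9, HSP90B1 and LAMP1, all described below, and 18 were lower.

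**Figure D2:**
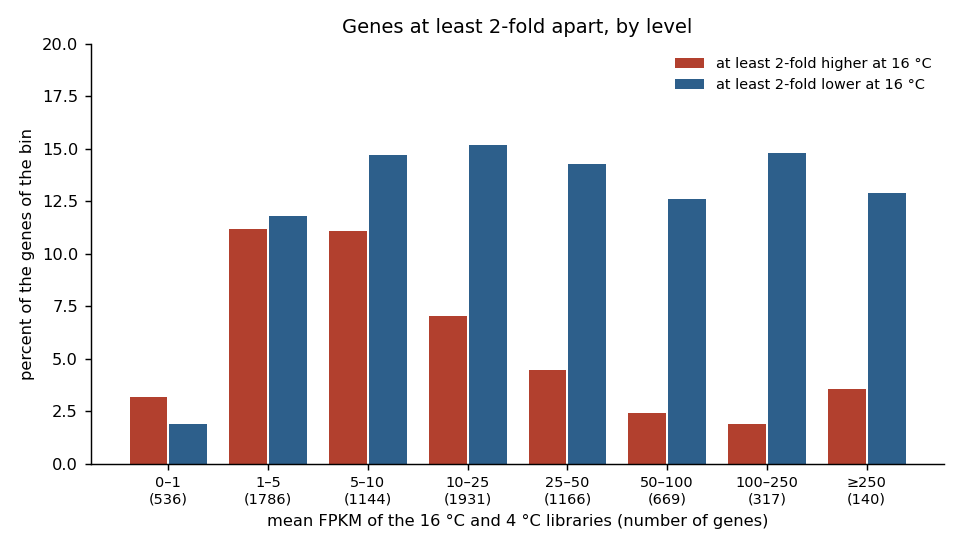
Bars give the percent of genes higher by 2-fold or more (red) or lower (blue) at 16 °C, in bins of the mean FPKM of both libraries, with the number of genes in each bin under the axis. The red bars shrink from 11.2% in the bin from 1 to 5 FPKM to 1.89% in the bin from 100 to 250, while the blue bars stay between 11.8% and 15.2% in every bin from 1 FPKM up.

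Immediate early genes, which cells switch on within minutes of a growth factor or stress signal without making new protein, had the highest median of the lists with 10 or more members. Of 26 measured, 12 (46.2%) were higher by 2-fold or more and 2 lower, against 7.27% and 13.0% of all genes, and the median was 0.85. Over the 9 alternatives of scaling and filtering, this median lay between 0.73 and 1.16. JUN, a subunit of the transcription factor AP-1, had 549 FPKM at 16 °C and 55.4 at 4 °C, with 64.2 at 24 °C, 47.4 after incubation and 52.7 unstored. The other 4 libraries lay close together, and the log2 difference between 16 and 4 °C was 3.28. CCN2, a matricellular protein also known as CTGF, had 113 FPKM at 16 °C, 10.2 at 4 °C, 12.53 at 24 °C, 5.55 after incubation and 13.3 unstored (3.35). Its relative CCN1, listed as CYR61, had 29.47 at 16 °C and 5.28 at 4 °C (2.28). Among the 5 libraries these genes, too, had their highest level at 16 °C.

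The partners of JUN in AP-1 were higher by less. FOS had 48.9 FPKM at 16 °C, 17.2 at 4 °C, 24.98 at 24 °C, 9.28 after incubation and 16.8 unstored (1.45). FOSL2 had 117 at 16 °C and 53.4 at 4 °C (1.12). The small MAF proteins bind DNA as partners of larger basic leucine zipper factors, and MAFK had 33.4 FPKM at 16 °C and 8.04 at 4 °C (1.93), MAFF 37.2 at 16 °C and 9.51 at 4 °C (1.86). Of the zinc finger factors, EGR1 had 5.77 at 16 °C and 1.37 at 4 °C (1.51), and KLF6 12.8 at 16 °C and 1.55 at 4 °C (2.43). The nuclear receptor NR4A3 had 4.62 FPKM at 16 °C and 0.19 at 4 °C (2.24), and GADD45G, a growth arrest and DNA damage inducible gene, 19.8 at 16 °C and 7.79 at 4 °C (1.24). The 2 members lower by 2-fold or more were MYC, which drives growth and ribosome production, with 31.02 FPKM at 16 °C and 88.2 at 4 °C (-1.48), and the kinase SGK1, with 16.8 at 16 °C and 46.8 at 4 °C (-1.42).

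Dual-specificity phosphatases switch off MAP kinases, and several are themselves induced by the kinases they switch off. DUSP8, which acts on the stress kinases JNK and p38, had the highest log2 difference on the higher side. It had 102 FPKM at 16 °C, 7.06 at 4 °C, 23.2 at 24 °C, 7.08 after incubation and 10.6 unstored (3.68). DUSP1, a nuclear phosphatase of the same kinases, had 97.1 at 16 °C, 18.9 at 4 °C, 18.1 at 24 °C, 6.24 after incubation and 18.4 unstored (2.31), and DUSP10 had 63.7 at 16 °C and 25.1 at 4 °C (1.31). DUSP4, which is induced by ERK signalling, went the other way, with 14.97 at 16 °C and 49.3 at 4 °C (-1.65), as did the RAS inhibitor RASA1 with 12.6 at 16 °C and 32.9 at 4 °C (-1.32). Of the 14 measured MAPK phosphatases and feedback inhibitors, 3 (21.4%) were higher and 2 (14.3%) lower, where the lower share is near the 13.0% of all genes, and the sign of their median depended on the scaling, as did that of the kinases. Among 21 kinases and RAS genes of the pathway, MAP3K14, the kinase that starts non-canonical NF-kappaB signalling, had 14.1 FPKM at 16 °C and 1.91 at 4 °C (2.37). BRAF (1.47) and NRAS (1.37) were also higher, none of the 21 was lower by 2-fold or more, and MAP2K1 had a log2 difference of -0.09.

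CCN1 and CCN2 are also the standard readouts of YAP, the effector that the Hippo pathway holds out of the nucleus. Of 15 Hippo and YAP genes measured, 6 (40.0%) were higher by 2-fold or more, against 7.27% of all genes, and 2 (13.3%) lower at 16 °C. The higher count fell as low as 2 under an alternative, and the median was -0.11, with a sign that depended on the scaling and the filter. Besides these CCN genes the higher members were FRMD6 (1.24), an activator of the pathway, CRIM1 (1.21), AMOTL1 (1.04) and WWTR1 (1.01), the paralogue of YAP. TEAD4 (-1.25), a transcription factor through which YAP acts, and MOB1A (-1.20), a co-activator of the LATS kinases, were lower. YAP1 itself had 178 FPKM at 16 °C and 201 at 4 °C (-0.17).

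The endoplasmic reticulum folds secreted and membrane proteins, and unfolded protein there activates sensors that raise its chaperones. HSPA5 (BiP), its main chaperone and a target of those sensors, was among the 5 most abundant named transcripts of the 16 °C library. It had 1334 FPKM at 16 °C, 203 at 4 °C, 321 at 24 °C, 204 after incubation and 187 unstored (2.71). The other 4 libraries ranged from 187 to 321, and the 16 °C level lay above all of them. HSP90B1 (GRP94), the HSP90 of this compartment, had 420.3 at 16 °C and 163 at 4 °C (1.36), and the sensor kinase EIF2AK3 (PERK) had 26.04 at 16 °C and 3.69 at 4 °C (2.53). The oxidase ERO1B (1.15), and SELENOS (1.30), a selenoprotein of the machinery that removes misfolded protein, were also higher by 2-fold or more.

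Of 23 chaperones and folding enzymes, 3 (13.0%) were higher by 2-fold or more and 3 (13.0%) lower, with a median of 0.20, against -0.15 over all genes. Of all genes, 7.27% were higher and 13.0% lower. The disulfide isomerase P4HB had 1130.0 FPKM at 16 °C and 636 at 4 °C (0.83), and PDIA3 332 at 16 °C and 209 at 4 °C (0.66), both under the threshold. SERPINH1 (HSP47), the chaperone of collagen, had 6.27 FPKM at 16 °C, 47.0 at 4 °C, 9.49 at 24 °C, 114 after incubation and 27.6 unstored (-2.72). The disulfide reductase DNAJC10 (-1.57) and the retention factor ERP44 (-1.16) were lower too. PDIA4 had 111 FPKM at 16 °C and 70.2 at 4 °C (0.66), and calnexin (CANX) 184 at 16 °C and 166 at 4 °C (0.15). Of 14 genes of the unfolded protein and integrated stress response, 3 (21.4%, against 7.27% of all genes) were higher and none lower. XBP1 had 72.2 FPKM at 16 °C and 39.55 at 4 °C (0.85), ATF4 61.03 at 16 °C and 87.3 at 4 °C (-0.51), and its target ASNS 25.49 at 16 °C and 23.8 at 4 °C (0.10). In ER-associated degradation 3 of 16 genes (18.8%, against 7.27% of all genes) were higher and none was lower. Among the higher ones were the VCP cofactor NPLOC4 (1.47) and the conjugating enzyme UBE2J1 (1.10). Other members of the machinery, SEL1L and VCP, had log2 differences of -0.07 and 0.24.

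Several abundant cytosolic chaperones were lower at 16 °C. HSP90AA1, the most abundant named gene of the 4 °C library, had 639 FPKM at 16 °C, 3672 at 4 °C, 985 at 24 °C, 4182 after incubation and 2979.8 unstored (-2.52). HSPA8, the constitutive HSP70, had 949 at 16 °C, 3051 at 4 °C, 1085 at 24 °C, 4199.8 after incubation and 2455 unstored (-1.68). In both genes the 16 °C and 24 °C libraries were the lower ones, and the 4 °C library sat with the unstored and incubated ones. HSPH1 (HSP110), which exchanges nucleotide on HSP70, had 14.4 FPKM at 16 °C and 139 at 4 °C (-3.18). The HSP90 activators AHSA1 (-1.64) and AHSA2 (-1.19), the HSP90 co-chaperone FKBP4 (-1.53) and the J-domain protein DNAJA4 (-1.47) were also lower by 2-fold or more.

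In all 7 of 33 cytosolic chaperone genes (21.2%) were lower by 2-fold or more, against 13.0% of all genes. The 3 higher (9.09%) were a share near the 7.27% of all genes. The list median was -0.47, with a range of -0.49 to -0.25 over the alternatives. The higher members were HSPB9, a small heat shock protein, DNAJB4 and BAG5. HSPB9 had 687 FPKM at 16 °C, 214 at 4 °C, 64.7 at 24 °C, 239.9 after incubation and 201 unstored (1.68), so that the storage temperatures on either side of 16 °C gave lower values. DNAJB4, a J-domain partner of HSP70, had 52.2 at 16 °C and 15.4 at 4 °C (1.70), and BAG5 11.6 at 16 °C and 5.30 at 4 °C, just at the threshold. The heat shock factor HSF2 had 71.6 FPKM at 16 °C and 81.8 at 4 °C (-0.19).

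The ring-shaped chaperonin CCT folds actin and tubulin, and prefoldin delivers them to it. All 12 measured subunits and cofactors of both were below 0 as deposited, with a median of -0.81 (-0.94 to -0.60 over the alternatives). Of these, 4 (33.3%, against 13.0% of all genes) were lower by 2-fold or more. CCT4 had 87.3 FPKM at 16 °C and 244 at 4 °C (-1.47), CCT6A 135 at 16 °C and 349 at 4 °C (-1.37), and TCP1 115 at 16 °C and 275 at 4 °C (-1.25). In mitochondria, the chaperonin HSPD1 (HSP60) had 173 FPKM at 16 °C and 605 at 4 °C (-1.80) and its lid HSPE1 534 at 16 °C and 1404 at 4 °C (-1.39). With them, the nucleotide exchange factor GRPEL1 (-1.46) and the protease LONP1 (-1.18) made up the 4 of 11 mitochondrial members lower by 2-fold or more. Their share was 36.4%, against 13.0% of all genes, and none was higher. CLPX, the unfoldase of another mitochondrial protease, had 68.2 FPKM at 16 °C and 45.3 at 4 °C (0.58).

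**Figure D3:**
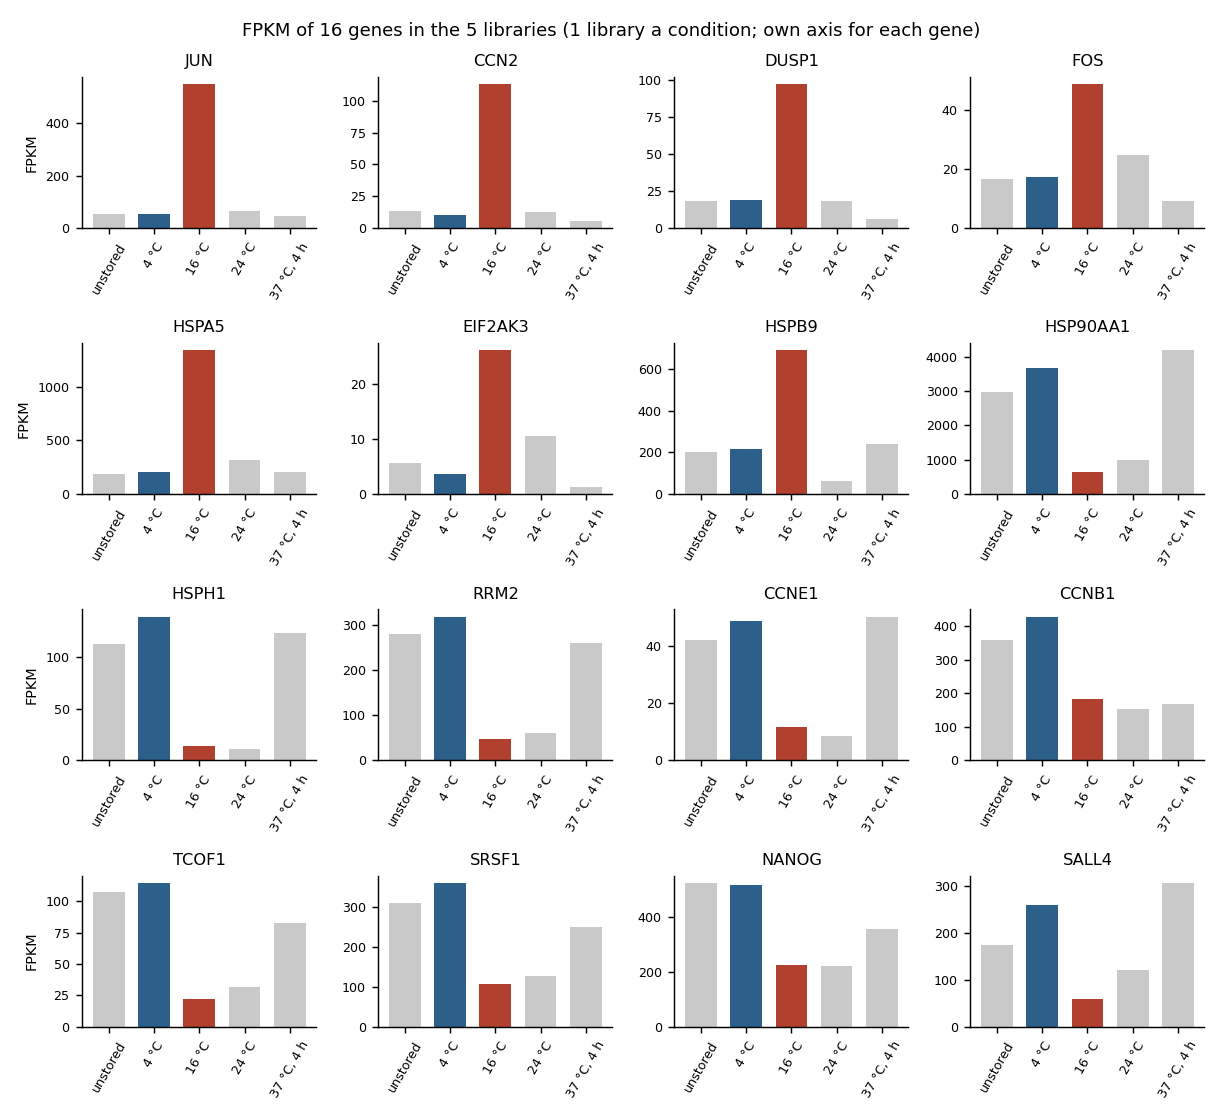
FPKM of 16 genes in each of the 5 libraries, 1 bar a library, with the 16 °C library in red and the 4 °C library in blue, and a separate vertical axis for each gene. JUN, CCN2, DUSP1, FOS, HSPA5, EIF2AK3 and HSPB9 have their highest bar at 16 °C, while HSP90AA1, HSPH1, RRM2, CCNE1, TCOF1, SRSF1 and NANOG are low at both 16 and 24 °C and high in the 4 °C and unstored libraries.

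Many genes for entry into S phase and for DNA replication were lower at 16 °C. Of 55 measured, 16 (29.1%, against 13.0% of all genes) were lower by 2-fold or more and none was higher. The median was -0.72 (-0.76 to -0.52 over the alternatives). RRM2, the regulated subunit of ribonucleotide reductase, had 48.3 FPKM at 16 °C, 318 at 4 °C, 60.3 at 24 °C, 260.3 after incubation and 279 unstored (-2.69). Cyclin E starts replication, and CCNE1 had 11.6 FPKM at 16 °C and 48.8 at 4 °C (-1.99), CCNE2 9.82 at 16 °C and 35.8 at 4 °C (-1.76). CDC25A, the phosphatase that activates its kinase, had 25.9 at 16 °C and 78.4 at 4 °C (-1.56). At the replication origin, MCM3 of the helicase (-1.68), GINS2 (-1.63) and GINS3 (-1.27) of its activator, the licensing inhibitor GMNN (-1.70) and ORC1 (-1.07) were lower. The other helicase subunits measured differed by less, MCM2 by -0.19, MCM4 by -0.11, MCM5 by 0.28 and MCM6 by -0.57. PCNA, the sliding clamp, had 148 FPKM at 16 °C and 311 at 4 °C (-1.06).

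The series title also names arrest in G2 and mitosis, and few genes of those phases were 2-fold apart between the storage temperatures. Of 49 measured, 4 (8.16%, below the 13.0% of all genes) were lower by 2-fold or more and none higher, with a median of -0.28. CCNB1, the cyclin of mitotic entry, had 184 FPKM at 16 °C and 429 at 4 °C (-1.22). CKS1B, a subunit of its kinase, had 38.8 at 16 °C and 150.4 at 4 °C (-1.93), KIFC1, a minus-end kinesin of the spindle, 66.8 at 16 °C and 232 at 4 °C (-1.78), and the securin PTTG2 19.7 at 16 °C and 48.51 at 4 °C (-1.26). CDK1 had 137 FPKM at 16 °C and 219 at 4 °C (-0.67), PLK1 145 at 16 °C and 181 at 4 °C (-0.32), and WEE1, the kinase that holds CDK1 inactive, 69.2 at 16 °C and 78.4 at 4 °C (-0.18). Of 25 cell cycle inhibitors and p53 targets, 2 were higher by 2-fold or more, a share near the 7.27% of all genes. Only 1 was lower, a share below the 13.0% of all genes. The higher genes were the stress kinase PLK2 (1.51) and the atypical cyclin CCNG2 (1.18), which accompanies cell cycle exit. The lower gene was TP63 (-1.01). CDKN1B (p27) had 13.2 FPKM at 16 °C and 7.16 at 4 °C (0.80).

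Ribosome biogenesis, the making and assembly of ribosomes in the nucleolus, was the list with the largest share of lower genes among those of 40 or more members. Of 41 genes, 18 (43.9%, against 13.0% of all genes) were lower by 2-fold or more and none higher. Below 0 lay 40, and the median was -0.90 (-0.94 to -0.69 over the alternatives). TCOF1 (treacle), which promotes transcription of ribosomal RNA, had 22.3 FPKM at 16 °C, 115 at 4 °C, 31.2 at 24 °C, 82.9 after incubation and 107 unstored (-2.31). WDR3 (-1.93) and WDR75 (-1.90), subunits of the complex that processes the small subunit, followed, as did the helicases DDX18 (-1.84), DDX47 (-1.64) and DDX52 (-1.36) and the core box C/D protein NOP56 (-1.41). Nucleolin (NCL) had 796 FPKM at 16 °C and 1204 at 4 °C (-0.60), and NPM1 1187 at 16 °C and 1449 at 4 °C (-0.29).

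The ribosomal proteins themselves did not differ by 2-fold. None of 59 was higher or lower by 2-fold or more, and their log2 differences lay between -0.43 and 0.56, with a median of 0.05 (0.04 to 0.27 over the alternatives). RPS3 had 762 FPKM at 16 °C and 515 at 4 °C (0.56), and RPL38 165 at 16 °C and 222 at 4 °C (-0.43). EEF2, the elongation factor that moves the ribosome, was the most abundant named gene at 16 °C, with 1867 FPKM there and 1340.3 at 4 °C (0.48). Of 36 translation factors, 5 (13.9%) were lower by 2-fold or more, close to the 13.0% of all genes, and none was higher. The lowest was the helicase EIF4A2 with 154 at 16 °C and 532 at 4 °C (-1.78). The release factor ETF1 (-1.07) and EIF6 (-1.23), which keeps ribosomal subunits apart, were also among them.

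SR proteins, which mark exons for the splicing machinery, made up the lower genes of splicing. Of 44 splicing genes 6 (13.6%) were lower by 2-fold or more, a share close to the 13.0% of all genes, and none was higher. All 6 were SR proteins or the SR-related TRA2A (-1.11). SRSF1 had 107 FPKM at 16 °C, 361 at 4 °C, 128 at 24 °C, 251 after incubation and 311 unstored (-1.75). The same direction was seen in SRSF2 (-1.58), SRSF3 (-1.47), SRSF6 (-1.88) and SRSF7 (-2.19), whereas SRSF5 had 53.6 at 16 °C and 28.3 at 4 °C (0.90). SRSF10 (-0.23), SRSF11 (-0.19) and TRA2B (0.12), of the same kind, were less than 2-fold apart. In nuclear transport, 8 of 34 genes (23.5%) were lower and 1 (2.94%) was higher, against 13.0% lower and 7.27% higher of all genes. The importin KPNA2 had 42.9 FPKM at 16 °C and 166 at 4 °C (-1.92), the GTPase RAN 232 at 16 °C and 593 at 4 °C (-1.35) and its partner RANBP1 114 at 16 °C and 301 at 4 °C (-1.39). TNPO1, the import receptor of many RNA-binding proteins, was the higher one, with 15.2 at 16 °C and 4.55 at 4 °C (1.55). The stress granule proteins G3BP1 (-1.82) and CAPRIN1 (-1.45), which bind each other, were the 2 lower genes (6.25%, below the 13.0% of all genes) among 32 of RNA decay and stress granules.

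Of 45 autophagy and lysosome genes, 7 (15.6%, against 7.27% of all genes) were higher by 2-fold or more and 3 (6.67%) lower. The higher count lay between 6 and 13 over the alternatives, and the sign of their median, -0.05 as deposited, depended on the setting. The receptor SQSTM1 (p62), which brings ubiquitinated cargo to autophagosomes, had 143 FPKM at 16 °C, 39.8 at 4 °C, 193 at 24 °C, 65.6 after incubation and 35.6 unstored (1.82). MAP1LC3B (1.31) and MAP1LC3A, which coat the autophagosome, the scramblase ATG9A (1.53), the receptor TAX1BP1 (1.15), the starting kinase ULK1 (1.12) and LAMP1 (1.08) of the lysosomal membrane were higher. ATG3, which attaches lipid to the LC3 proteins, had 7.34 at 16 °C and 17.8 at 4 °C (-1.18), and NBR1, another cargo receptor, 1.74 at 16 °C and 4.82 at 4 °C (-1.09). Few proteasome genes reached 2-fold, with 1 of 30 genes higher, its ubiquitin receptor ADRM1 (1.30), and 1 lower, the assembly factor PSMG2 (-1.41). Each share was 3.33%, against 7.27% higher and 13.0% lower of all genes. The conjugating enzymes UBE2D2, with 37.7 FPKM at 16 °C and 152 at 4 °C (-1.98), UBE2N (-1.49) and UBE2G1 (-1.16) were lower. In their list of 25 ubiquitin genes 4 (16.0%) were lower, a share near the 13.0% of all genes, and none was higher.

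Late apoptosis is named in the title as well. Of 30 genes of initiation and of the BCL2 family, 2 (6.67%) were higher by 2-fold or more and 4 (13.3%) lower, shares close to the 7.27% and 13.0% of all genes. BCL2, which holds mitochondria closed, had 6.17 FPKM at 16 °C and 1.65 at 4 °C (1.44), whereas its relative BCL2L1, with the same action, had 19.2 at 16 °C and 41.6 at 4 °C (-1.08). BAK1, a pore former, was higher with 32.03 at 16 °C and 13.2 at 4 °C (1.22). The BH3-only protein BMF was lower with 12.7 at 16 °C and 47.1 at 4 °C (-1.81). Cytochrome c (CYCS), which carries electrons in respiration and starts the caspase cascade once released, had 149 FPKM at 16 °C and 435 at 4 °C (-1.54). Among 21 genes of execution and of caspase substrates, 5 (23.8%, against 13.0% of all genes) were lower and 1 (4.76%, against 7.27%) higher. LMNB1 (-2.43) and LMNB2 (-1.22) form the nuclear lamina, HMGB1 (-1.31) bends DNA, and the annexins ANXA2 (-1.93) and ANXA5 (-1.05) bind membrane lipids. CAPN2, a calpain protease, was the higher member (1.02). The executioner caspase CASP6 lay just under 2-fold (0.98).

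More lineage genes were lower than higher at 16 °C, in the pluripotency, hypoblast and streak lists. Of 20 pluripotency and epiblast genes, 8 (40.0%, 4 to 8 genes over the alternatives) were lower by 2-fold or more and 1 higher, with a median of -0.78 (-0.88 to -0.57 over the alternatives). The zinc finger factor SALL4 had 57.8 FPKM at 16 °C, 259 at 4 °C, 121 at 24 °C, 307 after incubation and 174 unstored (-2.15). SOX3, the SOXB1 factor of the early epiblast, had 27.3 at 16 °C and 109 at 4 °C (-1.96), and LIN28A, an RNA-binding protein that blocks let-7 maturation, 14.2 at 16 °C and 64.4 at 4 °C (-2.11). NANOG (given above) differed by -1.20, with 223 FPKM at 24 °C, 357 after incubation and 526 unstored. TFCP2L1, a factor of naive pluripotency in mouse, was the higher member, with 6.85 FPKM at 16 °C and 1.40 at 4 °C (1.71).

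Hypoblast and endoderm genes had the lowest list median of the lists with 10 or more members, -1.02. Of 17 genes, 9 (52.9%, 5 to 10 genes over the alternatives) were lower by 2-fold or more, against 13.0% of all genes. The median lay between -1.43 and -0.32 over the alternatives, with -0.32 where no filter on low values was used. The chemokine receptor CXCR4 had 6.64 FPKM at 16 °C, 40.52 at 4 °C, 12.8 at 24 °C, 29.2 after incubation and 21.8 unstored (-2.44). GATA5 had 11.8 at 16 °C, 57.96 at 4 °C, 13.2 at 24 °C, 22.99 after incubation and 31.4 unstored (-2.20). The endoderm factors FOXA2 (9.56 FPKM at 16 °C and 29.5 at 4 °C, -1.53), SOX17 (4.73 at 16 °C and 14.6 at 4 °C, -1.44) and HNF4A (1.08 at 16 °C and 5.69 at 4 °C, -1.69) were lower. CER1, a Nodal antagonist of the hypoblast, had 0.19 at 16 °C and 1.49 at 4 °C (-1.07). In the unstored library FOXA2 had 12.2 FPKM, SOX17 5.35, HNF4A 0.83 and CER1 0.24. These unstored values lay closer to those at 16 °C than to those at 4 °C. Genes of the basement membrane, LAMA1 (-1.43) and COL4A1 (-1.24), were also lower at 16 °C than at 4 °C. APOA1, an apolipoprotein, went the other way, with 113 FPKM at 16 °C, 46.6 at 4 °C, 198 at 24 °C, 103 after incubation and 21.4 unstored (1.26). That gene made up most of the summed marker level at 16 °C given above, and the smaller part of it at 4 °C.

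In the list of primitive streak, mesoderm and axis signalling, 10 of 28 genes (35.7%, 5 to 14 genes over the alternatives) were lower by 2-fold or more. The share of all genes was 13.0%. In the list 1 gene was higher, and the median was -0.59 (-0.83 to -0.40 over the alternatives). EOMES, a T-box factor of streak and endoderm, had 4.91 FPKM at 16 °C, 30.7 at 4 °C, 2.46 at 24 °C, 17.2 after incubation and 14.2 unstored (-2.42). The 4 °C library had the highest EOMES level of the 3 stored libraries, and 16 and 24 °C the lowest levels of the 5. WNT8A, a ligand of the posterior margin, had 4.59 at 16 °C, 24.1 at 4 °C and 13.0 unstored (-2.17). The organizer gene GSC had 2.77 at 16 °C, 8.70 at 4 °C and 3.71 unstored (-1.36). SNAI2, which represses cadherins at the streak, had 5.21 at 16 °C and 16.3 at 4 °C (-1.48). TBXT (brachyury) had 9.27 FPKM at 16 °C and 8.72 at 4 °C (0.08), and WNT11 was the higher gene, with 5.76 at 16 °C and 1.84 at 4 °C (1.25).

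Pathways that pattern the blastoderm are read here against the 13.0% lower and 7.27% higher of all genes. Of 35 WNT pathway genes, 11 (31.4%) were lower by 2-fold or more and 2 (5.71%) higher, with a median of -0.55, and the lower count lay between 6 and 13 over the alternatives. CTNNB1 (beta-catenin), which carries the signal to the nucleus, had 505 FPKM at 16 °C and 1011 at 4 °C, just past the threshold, and the receptors FZD7 (-1.30) and FZD2 (-1.17) and the factor TCF7L2 (-1.13) were lower as well. Secreted inhibitors FRZB (-1.79) and SFRP1 (-1.34) were also lower. RNF43, a membrane ubiquitin ligase that removes WNT receptors, had 12.1 FPKM at 16 °C, 0.71 at 4 °C, 8.06 at 24 °C, 2.64 after incubation and 0.74 unstored (2.94), and was with WNT11 the higher pair of the list. Outside the list, the planar polarity gene PRICKLE2 had 7.73 at 16 °C and 0.43 at 4 °C (2.61). Of 38 TGF-beta and BMP genes, 8 (21.1%) were lower and 2 (5.26%) higher, with 2 to 10 lower over the alternatives. They included the activin receptor ACVR2B (-1.58) and the BMP antagonist NOG (-1.32) on the lower side and TGFBR2 (1.35) on the higher. In the FGF pathway, 4 of 18 (22.2%) were lower and 1 (5.56%), FRS3 (1.65), was higher. The lowest was the inhibitor IL17RD (SEF) with 0.81 FPKM at 16 °C and 7.59 at 4 °C (-2.25). Among 18 Notch and hedgehog genes, 3 (16.7%) were higher and 2 (11.1%) lower. The ligand DLL1 (-1.29) was lower while DLL4 (1.78) and the hedgehog receptor PTCH1 (1.27) were higher.

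**Figure D4:**
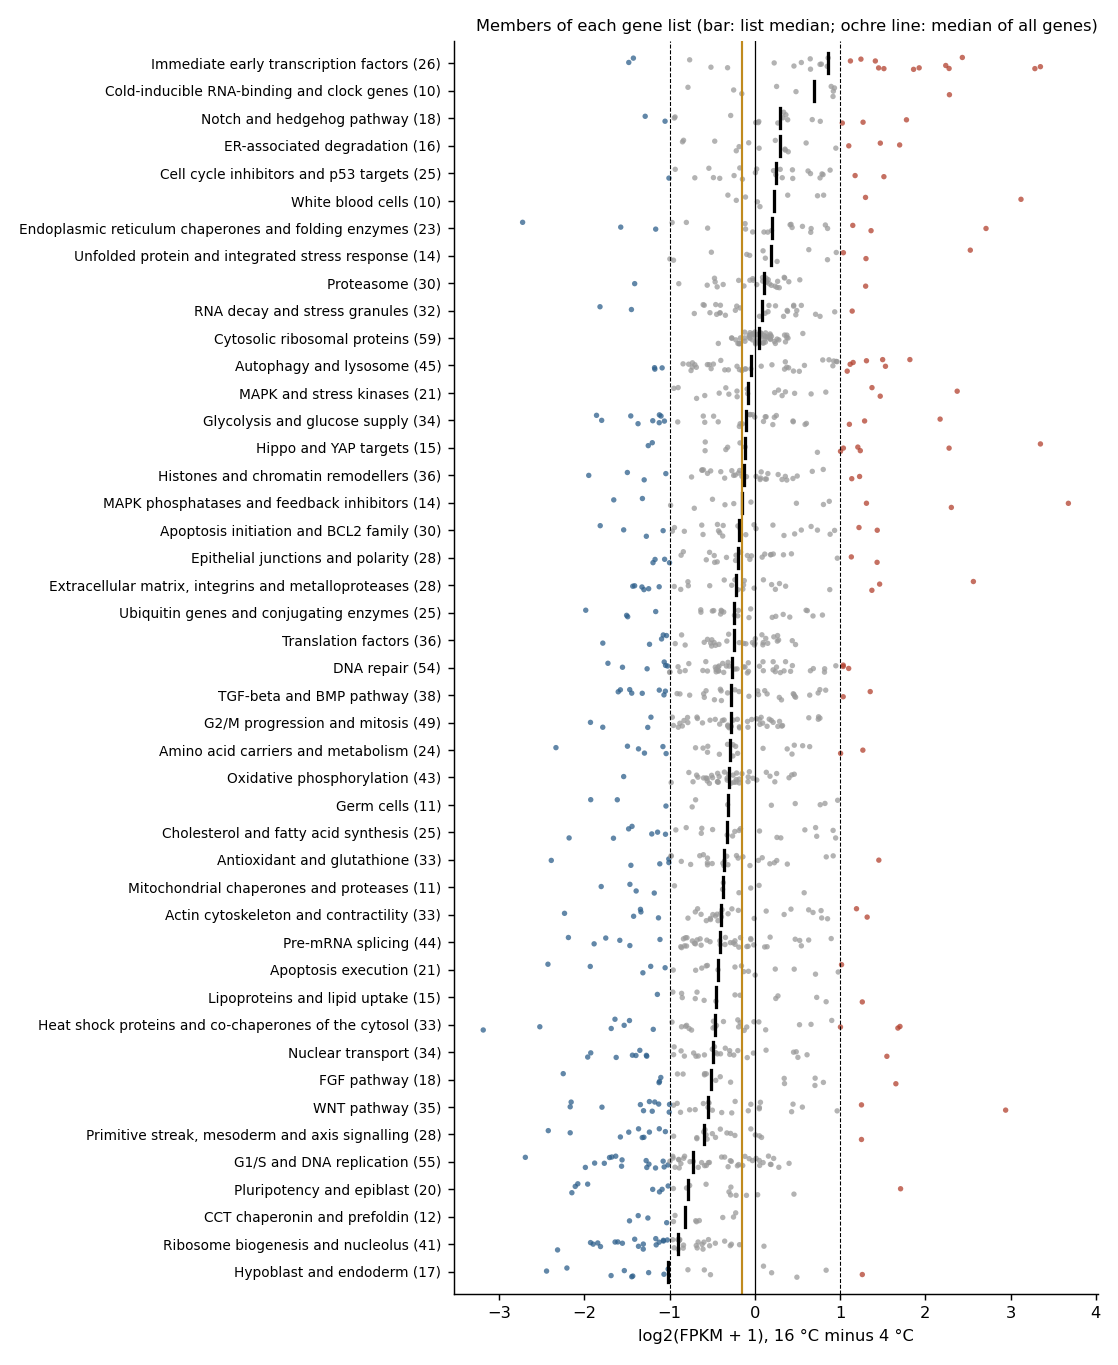
Each row is a gene list with 10 or more members compared (number in brackets), each point a member at its log2 difference, 16 °C minus 4 °C, and the black bar the list median. Red points reach 1 and blue points -1. The ochre line marks the median of all genes, -0.15. The rows run from hypoblast and endoderm at the bottom (-1.02) to immediate early genes at the top (0.85), and the members of the cytosolic ribosomal protein row cluster tightly around 0.05.

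Among genes of sugar use, some of those for its entry and its end were lower at 16 °C. The glucose transporter SLC2A1 (0.13) and the hexokinase HK1 (-0.48) were less than 2-fold apart. The glucose transporter listed as SLC2A14, which older tables name SLC2A3, had 160.1 FPKM at 16 °C and 558 at 4 °C (-1.80), and hexokinase HK2 had 15.52 at 16 °C and 58.8 at 4 °C (-1.86). Lactate dehydrogenases LDHA (-1.12) and LDHB (-1.06) and the lactate carriers SLC16A1 (-1.45) and SLC16A3 (-1.37) were lower. Of the enzymes between them, ENO1 had 1228 FPKM at 16 °C and 1228 at 4 °C, and GAPDH 1086 at 16 °C and 1129 at 4 °C (-0.06). PGK2 (-0.90) and PGAM1 (-0.60) differed by more. The list median was -0.10, with a sign that depended on the scaling. ENO2, the second enolase gene, had 7.57 at 16 °C and 0.90 at 4 °C (2.17). It was among 3 (8.82%) higher genes of 34, a share near the 7.27% of all genes. Lower were 9 (26.5%, against 13.0% of all genes), with 4 to 9 lower over the alternatives. In oxidative phosphorylation 1 of 43 genes was lower, CYCS, and none higher, a share of 2.33% against 13.0% of all genes.

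Of 25 genes of cholesterol and fatty acid synthesis, 7 (28.0%, 3 to 7 genes over the alternatives) were lower by 2-fold or more and none higher. Of all genes, 13.0% were lower and 7.27% higher. The desaturases FADS1, with 4.85 FPKM at 16 °C and 25.47 at 4 °C (-2.18), and FADS2, with 4.23 at 16 °C and 15.5 at 4 °C (-1.66), make polyunsaturated fatty acids, and the elongase ELOVL6 (-1.48) and HMGCS1 (-1.44) of the sterol pathway were lower with them. The stearoyl desaturase SCD had 241 FPKM at 16 °C and 195 at 4 °C (0.30). SHMT1, which feeds serine into the folate cycle, had 2.98 at 16 °C and 19.04 at 4 °C (-2.33). PSAT1 of serine synthesis went the other way, 28.1 at 16 °C and 11.1 at 4 °C (1.27), while PHGDH, the enzyme before it, was lower (-1.08).

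Among antioxidant genes, the mitochondrial peroxidase PRDX3 had 4.70 FPKM at 16 °C, 28.8 at 4 °C, 0.28 at 24 °C, 10.9 after incubation and 21.3 unstored (-2.39). Catalase, the enzyme of peroxisomes that breaks down hydrogen peroxide, was the higher member, and SOD2, the mitochondrial dismutase, was lower and just past the threshold, with 17.2 at 16 °C and 35.7 at 4 °C (-1.01). In all 5 of 33 (15.2%, near the 13.0% of all genes) were lower and 1 was higher. The lower count lay between 1 and 8 over the alternatives. The clock and cold-response list had a median of 0.69 over 10 genes and 1 member past the fold. That member, the clock repressor PER2, had 38.8 FPKM at 16 °C, 7.18 at 4 °C, 16.4 at 24 °C, 10.1 after incubation and 14.6 unstored (2.28). TEF (0.93), NFIL3 (0.92) and ARNTL (0.92), factors of the same circuit, lay just under the threshold, while HLF (-0.78), CRY2 (-0.25) and CRY1 (-0.15) lay below 0. RBM3, the best known cold-inducible RNA-binding protein, had 246 FPKM at 16 °C and 206 at 4 °C (0.26).

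Matrix, adhesion and cytoskeleton genes were mixed. The gelatinase MMP9 had 11.1 FPKM at 16 °C and 1.04 at 4 °C (2.56), and the matrix protein FBLN1 30.8 at 16 °C and 10.52 at 4 °C (1.46). HAS2, which makes hyaluronan, had 4.04 FPKM at 16 °C, 33.1 at 4 °C, 16.4 at 24 °C, 63.9 after incubation and 15.48 unstored (-2.76), the 16 °C level being the lowest of the 5. Integrin ITGB5 (-1.41) was lower. In the actin list, the small GTPases RHOB (1.19) and RHOC (1.32) were higher, and CDC42EP3 (-2.23), the myosin light chain MYL9 (-1.42) and profilin PFN2 (-1.34) were lower. ACTB itself had 1567 FPKM at 16 °C and 2698 at 4 °C (-0.78). In epithelial junctions, the polarity gene PARD6B (1.43) and plakophilin PKP2 (1.13) were higher and desmoplakin DSP (-1.19) lower, while CLDN1, a tight junction claudin among the most abundant genes, had 1502 at 16 °C and 1321 at 4 °C (0.19) and CDH1 12.1 at 16 °C and 14.3 at 4 °C (-0.22).

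Of 54 DNA repair genes 3 (5.56%) were higher and 6 (11.1%) lower, shares near those of all genes, with the uracil glycosylase UNG lowest (-1.72). Of 36 histone and chromatin genes 2 (5.56%) were higher and 4 (11.1%) lower, again near the shares of all genes, with the demethylase KDM5B at 17.9 FPKM at 16 °C and 71.8 at 4 °C (-1.95). Germ cell genes MAEL (-1.92), TFAP2C (-1.61) and DAZL (-1.04) were lower, 3 of 11 (27.3%, against 13.0% of all genes). None of the 11 was higher by 2-fold or more. The list was mixed, with 6 members below 0 and 5 above it, among these TDRD9 (0.97) and PRDM1 (0.82). DDX4 (vasa), the defining germ cell gene, had 5.73 FPKM at 16 °C and 9.89 at 4 °C (-0.69). Of 10 genes in the white blood cell list, 2 were higher by 2-fold or more, LCP1 and RUNX1 (1.30), and none was lower. The list median was 0.22, with 7 members above 0. The 3 below 0 were CD3E (-0.22), TLR2 (-0.32) and IRF8 (-0.11). LCP1 (plastin), an actin bundler, had 18.5 FPKM at 16 °C, 1.24 at 4 °C, 21.1 at 24 °C, 6.57 after incubation and 1.79 unstored (3.12), while PTPRC, the defining gene of white blood cells, had 1.24 FPKM at 16 °C and 0.28 at 4 °C. In the egg white list TF (1.08) and avidin AVD (1.39) were higher at 16 °C, all at low level. TF had 4.25 FPKM at 16 °C and 1.48 at 4 °C, and AVD 6.24 at 16 °C and 1.76 at 4 °C. The part of egg white or blood cells in any result was not tested. In the erythroid list of 5, TFRC (-1.63), LMO2 (-1.41) and HEMGN (-1.09) were lower, and TFRC, the transferrin receptor, is also used by cells that are not erythroid. In the muscle and neural list, 2 of 8 genes were lower, the neurofilament subunits NEFM (-2.11) and NEFL (-1.39). The 1 higher gene of that list (12.5%, against 7.27% of all genes) was TNNC1, with 5.83 FPKM at 16 °C and 2.11 at 4 °C.

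Single genes outside these lists reached differences as large, and larger on the lower side. RABGGTB, a subunit of the enzyme that attaches lipid to Rab proteins, had the lowest log2 difference of all named genes, with 0.31 FPKM at 16 °C, 27.2 at 4 °C, 3.81 at 24 °C, 20.4 after incubation and 27.3 unstored (-4.43). These values rest on 1 row with a symbol. C15orf39 had 3.08 at 16 °C and 49.4 at 4 °C (-3.63). The transcription factor SOX14 had 0.87 at 16 °C and 13.1 at 4 °C (-2.92), the riboflavin carrier SLC52A3 1.59 at 16 °C and 18.2 at 4 °C (-2.89) and GRK6, a kinase that silences G protein-coupled receptors, 0.70 at 16 °C and 11.4 at 4 °C (-2.87). TACR1, the receptor of substance P, had 0.97 FPKM at 16 °C and 13.01 at 4 °C (-2.83), and TSC22D1, a leucine zipper protein, 10.46 at 16 °C and 77.8 at 4 °C (-2.78). PALM2AKAP2 (-2.85), PHYH (-2.69), an oxidase of branched fatty acids in peroxisomes, TMEM94 (-2.61) and the chemokine CXCL14 (-2.58) completed the 15 lowest, with HSPH1, HAS2, SERPINH1 and RRM2 given above.

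At the other end stood AADACL3C, with 14.1 FPKM at 16 °C and 0.46 at 4 °C (3.37), and the deubiquitinase USP25 (3.01). The phosphatase PTPN21, a regulator linked to the membrane skeleton, had 20.8 FPKM at 16 °C and 2.11 at 4 °C (2.81), and the endosomal syntaxin STX7 36.1 at 16 °C and 5.16 at 4 °C (2.59). The adaptor SH2D3C (2.55) was also among the 15 highest, with DUSP8, CCN2, JUN, LCP1, RNF43, HSPA5, PRICKLE2, MMP9 and EIF2AK3 given above. Of the genes kept, 19 were listed at 0 at 4 °C only and 21 at 16 °C only. Of those listed at 0 at 4 °C, the highest at 16 °C were CREB5, a partner of JUN, with 5.10 FPKM, AP2B1 with 3.39 and RBBP8 with 1.64. Those with the highest level at 4 °C while listed at 0 at 16 °C were METTL23 with 3.37, STEAP3 with 2.86 and FOXRED1 with 2.51, and no fold is given for any of these genes.

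A smaller set of genes set the 16 °C library apart from all of the other 4. Among 7662 genes above 0 in all 5 libraries, 36 (0.470%) were higher by 2-fold or more at 16 °C than in every other library and 44 (0.574%) lower by 2-fold or more than in every other. The same counts were 37 and 15 for the 24 °C library, 97 and 15 for the incubated library, 3 and 0 for the 4 °C library and 0 and 10 for the unstored library. The genes highest above all others were JUN, by 3.08 on the log2 scale over the next library, then CCN2, DUSP1 (2.31), PRICKLE2 (2.28), DUSP8 (2.09), HSPA5 (2.05), CYR61 (1.98), LBH (1.98), PTPN21 (1.61) and C8orf4 (1.59). LBH, a transcription cofactor of limb and heart, had 165 FPKM at 16 °C, 41.2 at 4 °C, 33.4 at 24 °C, 16.9 after incubation and 37.8 unstored.

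The genes lowest below all others at 16 °C were GRK6, by -2.06 against the next lowest library, TMEM94 (-2.02), CXCL14 (-1.93), RABGGTB (-1.88), HEMK1 (-1.75), TRAIL-LIKE (-1.73), HAS2 (-1.71), CEP295 (-1.57), SLC12A3 (-1.54) and CHPF2 (-1.39). CEP295 is a protein of the centriole, SLC12A3 a sodium chloride carrier and CHPF2 an enzyme of chondroitin synthesis. CXCL14 had 1.65 FPKM at 16 °C, 14.9 at 4 °C, 9.09 at 24 °C, 39.8 after incubation and 10.9 unstored. TRAIL-LIKE, a ligand of the tumour necrosis factor family that can trigger death receptors, had 4.71 at 16 °C, 23.8 at 4 °C, 17.9 at 24 °C, 28.3 after incubation and 20.6 unstored. In both, the 4 other libraries lay above the 16 °C library with the incubated one highest.

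**Figure D5:**
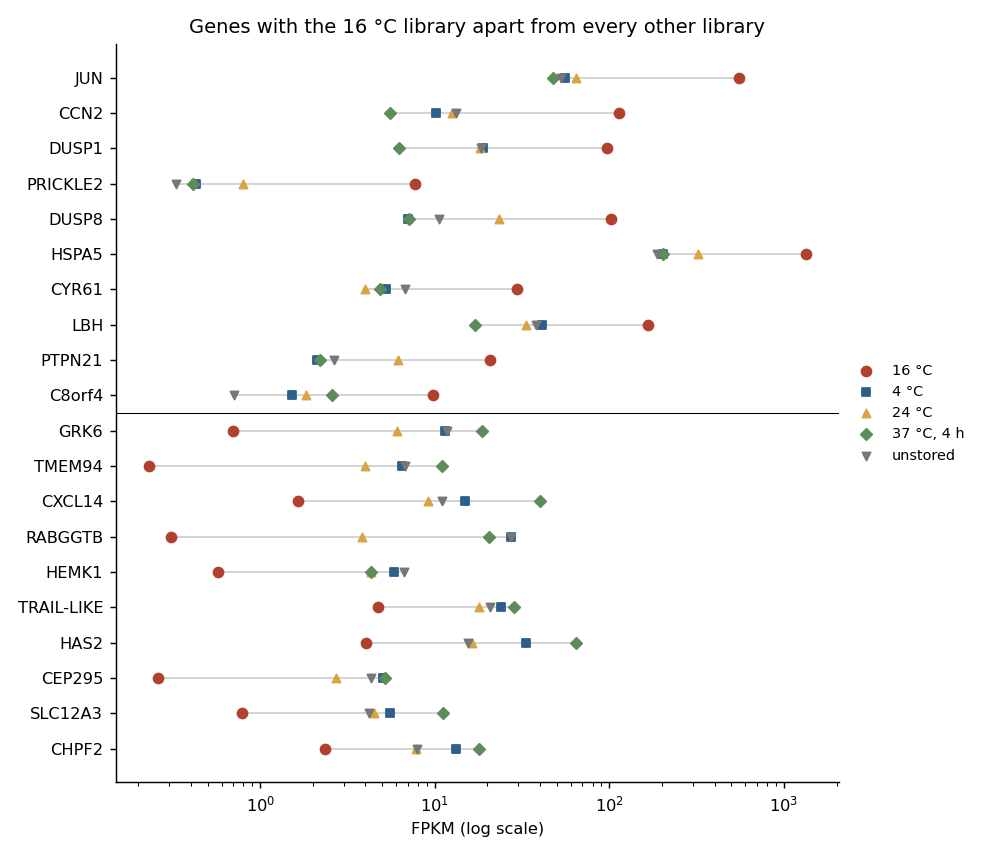
FPKM on a log scale in each of the 5 libraries, for the 10 genes highest above (upper block) and the 10 genes lowest below (lower block) all other libraries at 16 °C. In each row the red circle, the 16 °C library, stands at the end of the line, right of the other 4 in the upper block and left of them in the lower block, for example JUN at 549 against 64.2 in the next library.

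The most abundant named genes overlapped between both libraries. At 16 °C they were EEF2, ENS-1, ACTB, CLDN1 and HSPA5, and at 4 °C HSP90AA1, ENS-1, HSPA8, ACTB and ERNI. ENS-1 and ERNI belong to a family of retroviral copies known for their transcription in the early chick embryo. ENS-1 had 1581 FPKM at 16 °C, 3437 at 4 °C, 2829 at 24 °C, 3333 after incubation and 3986 unstored (-1.12), and ERNI 1082 at 16 °C and 2064 at 4 °C (-0.93). These copies share sequence, so the division of reads between them, and between the copies of other families such as actins and histones, is uncertain.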

How the data were processed

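The deposited values are FPKM, 1 row per RefSeq accession in each of the 5 libraries, made by the authors from paired-end poly(A) RNA reads per the labels' protocols and the column names. The submitters' processing notes list TopHat2 2.0.8 and Cufflinks 2.0.2, with galGal4 as the build, and no source used here names the annotation release. No counts were used, so the depth behind a value is unknown, no interval or floor can be given, and an exact 0 is called listed at 0. Accessions were matched without version to chicken symbols in a RefSeq gene table of the assembly bGalGal1.mat.broiler.GRCg7b, used for names only, and the FPKM of a symbol's rows were summed.

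Genes with an FPKM of 1 or more in any library were kept, and 16 °C was compared with 4 °C as a difference of log2(FPKM + 1) between 2 single libraries, with no test. A log2 difference of 1 or more either way, with both values above 0, counted as higher or lower. Named by rule were the 15 highest and 15 lowest differences at 5 FPKM or more, the 10 genes farthest above or below all other libraries, the 5 most abundant genes, the 3 highest of those listed at 0, and up to 5 members of each list with the largest differences. Other list members were named after their values were seen. Some genes are not reported here. The members and lists were chosen with earlier results of these data known. Alternatives were pseudocounts of 0.1 and 5, dropping the filter, raising it to a mean FPKM of 5, median-ratio size factors, a common total of 1000000, the highest row of a symbol, and genes of 1 accession. The calculation was checked on simulated data, a copy of the 4 °C library with little noise and 4-fold changes planted in genes of 5 FPKM or more. With changes so far past the threshold, this checks the arithmetic only and not how reliable the counts are. Python 3.11.15, pandas 2.3.3, numpy 2.4.6 and matplotlib 3.10.9 were used.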

Additional observations from a re-analysis of the deposited data

How the results depend on the processing

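As deposited 559 genes were higher and 998 lower at 16 °C. The higher count was 874 with a pseudocount of 0.1, 173 with a pseudocount of 5, 342 at a mean FPKM of 5 or more and 1160 with a common total of 1000000. The lower count was 491 with a pseudocount of 5. Over single rows, with or without a symbol, 1624 were higher and 2059 lower, and 842 genes were higher with 16 °C scaled to the FPKM sum of 4 °C. These last 2 alternatives were chosen after seeing the data. The median of -0.15 was -0.0421 with size factors, 0.0574 with a common total and 0.032 at the sum of 4 °C. Genes above all other libraries numbered 36, against 75 with a pseudocount of 0.1, 13 with 5 and 71 with a common total. Genes below all others numbered 44, against 107, 7 and 68. List medians near 0 changed sign. The autophagy median was 0.0754 at a mean FPKM of 5 or more and with genes of 1 accession, 0.0844 with size factors, 0.166 with a common total and 0.163 at the sum of 4 °C. Hippo genes were 0.311 at that mean FPKM. With size factors, a common total and the sum of 4 °C, the medians were 0.0358, 0.12 and 0.116 for glycolysis, 0.0231, 0.075 and 0.104 for Hippo genes, 0.0074, 0.088 and 0.0862 for chromatin, and 0.0462, 0.128 and 0.127 for MAPK kinases. With genes of 1 accession they were 0.0748 for MAPK kinases and -0.0585 for RNA decay. MAPK phosphatases were 0.167 with a common total and 0.0485 at the sum of 4 °C, where epithelial genes were 0.019. Of 11065 values of single named or list genes under an alternative, 266 dropped under 2-fold and 191 rose past it. No gene past 2-fold changed direction, but this is no check of the directions. Changing the filter or keeping genes of 1 accession leaves a gene's value as it was. A pseudocount cannot change the sign of a difference, and the scalings moved the ratio of FPKM between both libraries by less than 2-fold. No replicate could be left out, and no paired analysis was possible because each condition had 1 library. The cause of these shifts was not tested, and how few reads lie behind a low FPKM cannot be seen in these values.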

Other observations

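Besides the genes described above, STAT3, RIT1, SERINC1 and SYNGR1 were at least 2-fold higher at 16 °C with a mean of the 2 libraries above 100 FPKM, and they were singled out after their values were seen. STAT3, a transcription factor activated by cytokine receptors, had 179 FPKM at 16 °C, 79.5 at 4 °C, 118 at 24 °C, 79.8 after incubation and 96.2 unstored. The RAS-related GTPase RIT1 had 135 at 16 °C and 65.2 at 4 °C, SERINC1 206 at 16 °C and 94.0 at 4 °C, and SYNGR1 168 at 16 °C and 58.1 at 4 °C.

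Rows of a gene did not always differ in the same direction. Of 312 genes with 2 or more rows of at least 5 FPKM, 11 had rows at least 2-fold apart in both directions. Their summed values were less than 2-fold apart except in SLC29A1 (-1.04), so that the sum hid differences between rows. They were ATG16L2, DCP2, DIP2A, FDXR, G3BP2, ITFG2, KIAA0319L, MAPK8, MOB2, SLC29A1 and UBA3. UBA3, a subunit of the enzyme that activates NEDD8, had a row with 15.5 FPKM at 16 °C, 1.48 at 4 °C, 22.7 at 24 °C and 0 unstored. Its other row had 3.73 FPKM at 16 °C, 29.1 at 4 °C, 0 at 24 °C and 25.5 unstored. In DCP2, the enzyme that removes the cap of messenger RNA, a row with 16.1 FPKM at 16 °C and 4.68 at 4 °C stood beside another that was 2-fold or more lower at 16 °C. Reads shared by isoforms are divided by estimation in FPKM, and how stable that division was here was not tested.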
